A study of Mus musculus with 132 samples.

Results

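Lif, Lifr, Il6st, Il6ra, Jak1, Jak2, Stat3 and Socs3 were followed through single cells of mouse embryos that had been cultured with a mimic of the microRNA miR-381-3p or with a scrambled control mimic. They are the 8 rows with these symbols among the 32245 genes of the count table. The ligand LIF binds its receptor chain, encoded by Lifr, which pairs with the shared signalling chain gp130, encoded by Il6st. The kinases JAK1 and JAK2 on these chains phosphorylate STAT3, a transcription factor that then enters the nucleus, and SOCS3, whose gene is a STAT3 target, binds gp130 and the kinases and shuts the signal off. LIF is known for keeping mouse embryonic stem cells self-renewing in culture, and the cells of the inner cell mass, from which such lines are derived, respond to it. Il6ra encodes the receptor chain for IL-6, a related cytokine that also signals through gp130.

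Embryos of superovulated C57BL/6 x DBA F1 females (C57BL/6NCrl x DBA/2NHsd in the study's methods) mated with F1 males were flushed at embryonic day (E) 1.5, at the 2-cell stage, and cultured in KSOM medium with 1 of the 2 mimics. Cells were picked from 8-cell embryos at E2.5 (30 control and 24 mimic cells) or from 32-cell embryos at E3.5 (39 control and 39 mimic cells). The mimic and its control were given at 10 µM to the 8-cell embryos and at 5 µM to the 32-cell embryos, so stage and dose cannot be told apart. No other treatment or allele is named. Each group came from 3 to 5 embryos, but no label ties a cell to its embryo. Each group was therefore treated as 1 sample: cells of 1 embryo are not replicates, no test between groups was made, and no p-value is given.

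Each cell held between 544866 and 3461022 counts from Smart-seq2, which primes cDNA on poly(A) tails and covers whole transcripts, and between 3243 and 8983 detected genes. Levels are given as counts per 1000000 counts (CPM) after leaving out 13 mitochondrial genes, pooled over the cells of a group, with an exact Poisson 95% interval that covers counting error only. Markers of the 32-cell lineages were present: the 9 trophectoderm (TE) markers summed to 5939 (control) and 5759 CPM (mimic) at the 32-cell stage, against 363 and 485 CPM at the 8-cell stage. The 9 inner cell mass (ICM) markers summed to between 1172 and 2145 CPM in the 4 groups. The 8 markers of cumulus and granulosa cells, the maternal cells that surround an egg, summed to at most 0.657 CPM in any group. At the 32-cell stage Y-linked counts exceeded Xist in all 39 control cells, while all 39 mimic cells held Xist and at most 1 Y-linked count. At this stage mimic treatment and embryo sex, as these transcripts show it, therefore cannot be told apart in any comparison below. The 8-cell groups were mixed: 7 of 30 control and 8 of 24 mimic cells had more Y-linked counts than Xist.

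The sequence added to the embryos and its possible pairing with the 8 genes are shown first. The mature mouse miR-381-3p is encoded on chromosome 12 (RefSeq, GRCm38.p6, chr12:109726870-109726891, plus strand) and has 22 bases, of which the seed, positions 2 to 8 from the 5′ end, is in capitals.
miR-381-3p: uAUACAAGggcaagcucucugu
A full match to this seed followed by A reads CTTGTATA on the messenger RNA. Among the longest annotated 3′ UTRs of the 8 genes (GENCODE M21, GRCm38), the Jak2 3′ UTR alone held this 8-base match, which starts at base 594 of its 1232 bases. Over all 20741 genes with a 3′ UTR, 3.12% held it. Matches of 7 bases (CTTGTAT or TTGTATA) were present in Lifr, Il6ra and Stat3 and absent from Lif, Il6st, Jak1 and Socs3, and 21.5% of all genes held a match of 7 or 8 bases. These shares are not matched for length: the 3′ UTRs of the 8 genes had between 1128 and 7102 bases, against a median of 967 over all genes. The matches are printed with 10 bases on each side, the match in capitals. They can be set beside the changes under the mimic both of these 4 genes and of the 4 genes without a match.
Jak2 (chr19:29312442-29312449, plus strand): tctagttttaCTTGTATAggaaatcttc
Stat3 (chr11:100886860-100886866, minus strand): ttgtttgtttTTGTATAttgctgtaac
Lifr (chr15:7195997-7196003, plus strand): aagatcgcctTTGTATAgacaatcaac
Il6ra, first (chr3:89867290-89867296, minus strand): ctagtgaggcCTTGTATgtcacttata
Il6ra, second (chr3:89864862-89864868, minus strand): gatgcttagtTTGTATAcactttaatg
A match describes letters only, and pairing or repression at these places was not tested.

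In control cells Stat3 was 22.2-fold higher at the 32-cell stage, while Socs3 was 20.3-fold lower and Jak2 2.59-fold lower, and Lifr, without a count at the 8-cell stage, had counts in 6 of 39 cells. Levels of different genes can be compared per kilobase of annotated exon, and on this scale Socs3 stood first of the 8 in both 8-cell groups, at 44.8 CPM per kilobase in control and 28.9 in mimic cells, ahead of Jak2 (11.9 and 14.8) and Jak1 (9.09 and 7.73). At the 32-cell stage Stat3 stood first, at 30.9 CPM per kilobase in control and 18.3 in mimic cells, ahead of Jak1 (14.2 and 14.1) and Jak2 (4.60 and 1.80). Lif, Il6st and Il6ra stayed between 0.157 and 2.01 CPM per kilobase in every group, and their order among themselves varied between groups.

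**Figure D1:**
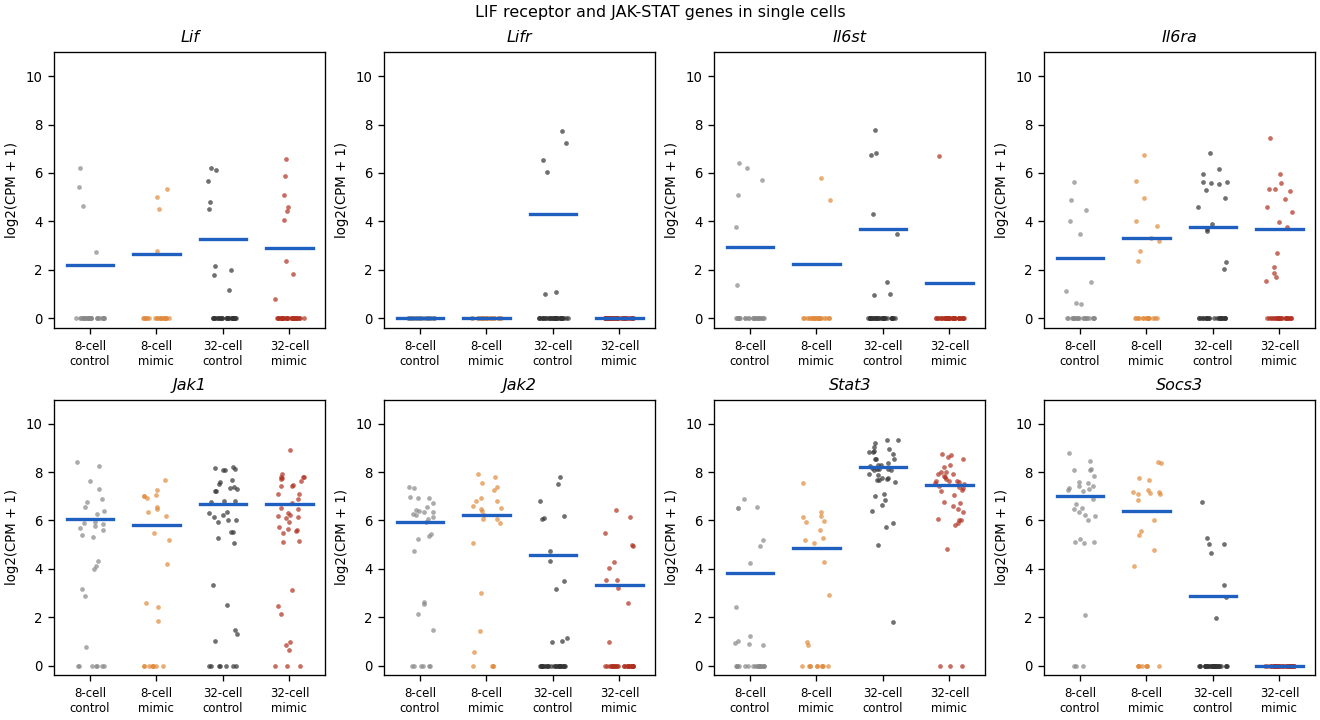
Each point is 1 cell, placed by its log2(CPM + 1) of the gene, for 30, 24, 39 and 39 cells of the 4 groups, and the blue line marks the pooled CPM of the group on the same scale. Stat3 cells at the 32-cell stage lie well above most 8-cell cells, Socs3 cells lie the other way, and points for Lifr above 0 are present in 32-cell control cells only.

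Lif, the gene of the ligand (chr11:4257557-4272514, plus strand), was detected in few cells of every group. Its pooled level was 3.54 CPM (95% interval 2.96 to 4.20) in 8-cell control, 5.24 CPM (4.46 to 6.11) in 8-cell mimic, 8.75 CPM (8.00 to 9.56) in 32-cell control and 6.498 CPM (5.83 to 7.22) in 32-cell mimic cells. Counts were present in 4 of 30, 4 of 24, 9 of 39 and 9 of 39 cells, the median cell of every group was at 0, and the highest cells ranged from 39.5 to 95.01 CPM. A single cell supplied between 40.5% and 58.5% of the Lif counts of each group, so the pooled levels rest on few cells. In control cells Lif was 2.47-fold higher at the 32-cell stage (2.04 to 3.02), but the cell numbers of this group fall into 2 runs, of which the run of 24 cells held 13.4 CPM and the run of 15 held 1.88 CPM, and without the run of 24 the log2 change was -0.66. In mimic cells it was 1.24-fold higher (1.03 to 1.504), a log2 change of 0.26 that turned to -0.32 without the run of 12 mimic cells and to -0.18 in cells with Xist only. Mimic over control at the 32-cell stage, its log2 change was -0.38, but 1.38 without the run of 24 control cells.

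Lifr (chr15:7090614-7197489, plus strand) had a count in 32-cell control cells and in no cell of the other 3 groups. Its pooled level there was 18.8 CPM (17.6 to 19.9), from 6 of 39 cells (15.4%, exact binomial 95% interval 5.86% to 30.5%), with a highest cell of 215 CPM that alone held 55.6% of the counts. No count was found in 30 8-cell control, 24 8-cell mimic or 39 32-cell mimic cells, which by counting error alone allows pooled levels of up to 0.0817, 0.0971 and 0.0563 CPM. The difference between 0 of 39 and 6 of 39 cells is therefore wide in CPM (at least 333-fold lower in mimic) and narrow in cells, whose binomial intervals overlapped (0% to 9.03% in mimic). These shares count cells with a count of Lifr, not cells that express it. Both runs of control cell numbers held Lifr at a like pooled level, 18.7 CPM in the run of 24 (4 cells) and 18.8 CPM in the run of 15 (2 cells). Lifr had a mean of under 5 CPM over the 4 groups and was not counted among the genes past 2-fold.

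Il6st, the gene of gp130 (chr13:112464070-112510086, plus strand), was also a gene of few cells. It stood at 6.78 CPM (5.96 to 7.67) in 8-cell control, 3.79 CPM (3.13 to 4.54) in 8-cell mimic, 11.7 CPM (10.9 to 12.7) in 32-cell control and 1.75 CPM (1.41 to 2.14) in 32-cell mimic cells. The numbers of cells with a count were 6 of 30, 2 of 24, 8 of 39 and 1 of 39, and the single 32-cell mimic cell stood at 104.5 CPM. The run of 15 control cells held 22.4 CPM and the run of 24 held 4.58 CPM, which is close to the 4.60 CPM of the run of 18 mimic cells. The other 2 runs of mimic cells, of 12 and 9 cells, held no count. On the scale of mean log2(CPM + 1) over cells the 32-cell difference of mimic from control was -0.66, under 2-fold, in place of -2.21. The pair of chains that forms the LIF receptor, Lifr and Il6st, was detected together in 2 of 39 32-cell control cells and in no cell elsewhere, and both of these cells also held a count of Stat3 and of Jak1 or Jak2.

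Il6ra (chr3:89864059-89913196, minus strand) was the most widespread of the 3 receptor chains. Counts were present in 9 of 30, 9 of 24, 15 of 39 and 16 of 39 cells, at pooled levels of 4.60 CPM (3.93 to 5.35), 8.90 CPM (7.88 to 10.0), 12.7 CPM (11.7 to 13.6) and 11.9 CPM (10.9 to 12.8) in 8-cell control, 8-cell mimic, 32-cell control and 32-cell mimic cells. It was 2.75-fold higher at the 32-cell stage in control (2.32 to 3.27) and 1.33-fold higher in mimic cells (1.15 to 1.54). The 32-cell control cells stood at 15.9 CPM in the run of 24 and 7.87 CPM in the run of 15, and without the run of 24 the log2 change in control cells was 0.66, under 2-fold, in place of 1.29. In mimic cells the stage change was 0.38 and turned to -0.45 without the run of 18. The 32-cell change of mimic over control was -0.09 and lay between -0.92 and 0.53 over the alternative settings. Of its 4.60 CPM in 8-cell control cells, much came from cells 87 and 88, which held 30.04 CPM against 2.48 CPM in the other 28. An annotated antisense gene shares 242 exon bases with Il6ra, and because no strand is stated for these libraries, reads from there cannot be assigned to 1 of them.

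**Figure D2:**
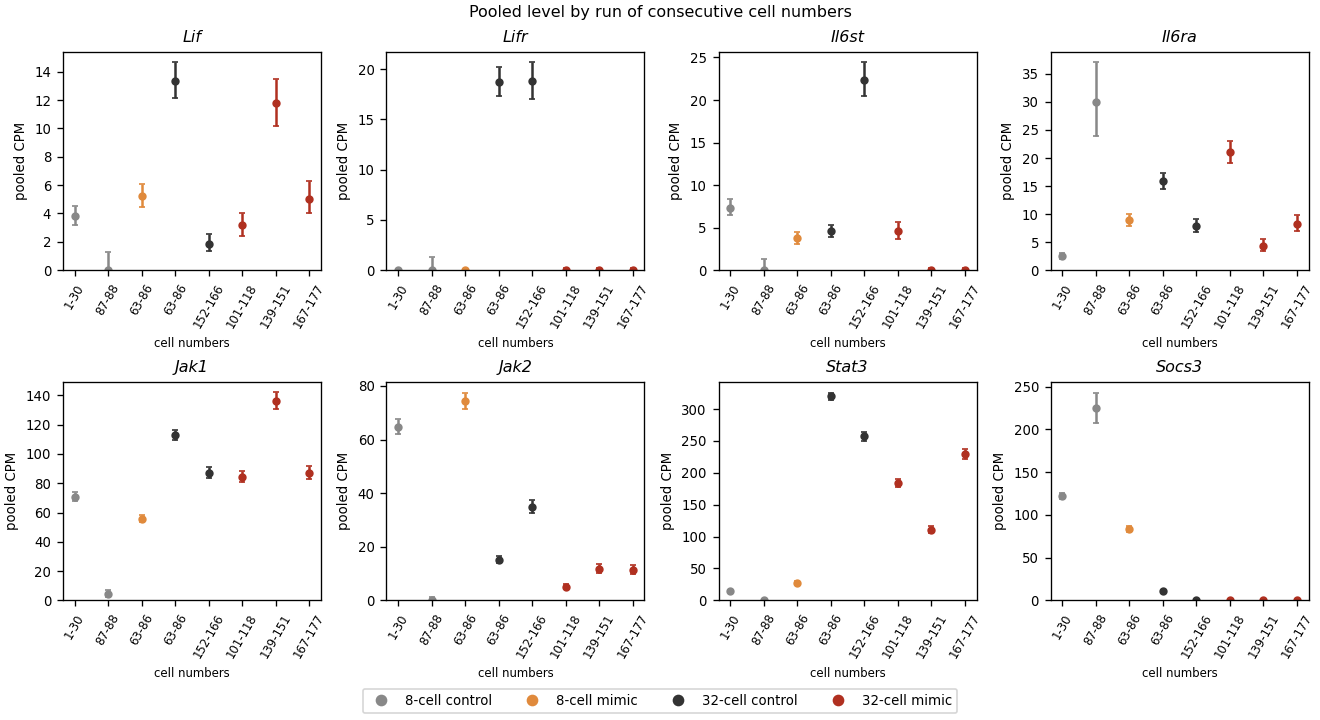
Pooled CPM of each gene in each run of consecutive cell numbers within a group, with exact Poisson 95% intervals as bars; runs hold between 2 and 28 cells. Stat3 separates the 32-cell from the 8-cell runs, and every 32-cell control run lies above every 32-cell mimic run for Stat3, Jak2 and Lifr but not for Lif, Il6st, Il6ra, Jak1 or Socs3.

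Jak1 (chr4:101152367-101265282, minus strand) was detected in most cells. It stood at 65.7 CPM (63.1 to 68.4) in 8-cell control, 55.9 CPM (53.3 to 58.6) in 8-cell mimic, 102.4 CPM (99.8 to 105.1) in 32-cell control and 102.02 CPM (99.3 to 104.8) in 32-cell mimic cells. Its median cells stood at 44.6, 26.4, 69.1 and 70.8 CPM, its highest at 341, 206, 294 and 482 CPM, and the lowest at 0 in every group, so that all 4 groups overlapped. It was 1.56-fold higher at the 32-cell stage in control and 1.83-fold in mimic cells, both under 2-fold. In mimic cells the log2 change of 0.86 became 1.67, past 2-fold, on the scale of mean log2(CPM + 1) over cells. Its 8-cell level differed with the Xist and Y-linked counts: cells with Y-linked counts above Xist stood at 115.3 CPM (control) and 30.02 CPM (mimic), and cells with Xist only at 33.5 and 65.4 CPM, the opposite order. Set against the former control cells alone, the 32-cell control cells, all of that type, had a log2 change of -0.17. The ratio of mimic to control at the 32-cell stage was 0.996 with an interval of 0.960 to 1.03, and within this stage the runs ranged from 87.1 to 112.8 CPM in control and from 84.5 to 136 CPM in mimic cells. Jak1 exons share 4 bases with those of overlapping genes.

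Jak2 (chr19:29251828-29313080, plus strand), the gene with the 8-base match shown above, was lower at the 32-cell stage in both treatments. Its pooled level was 59.8 CPM (57.3 to 62.3) in 8-cell control, 74.4 CPM (71.4 to 77.5) in 8-cell mimic, 23.1 CPM (21.9 to 24.4) in 32-cell control and 9.07 CPM (8.28 to 9.92) in 32-cell mimic cells. Counts were present in 24 of 30 and 20 of 24 8-cell cells but in 13 of 39 and 12 of 39 32-cell cells, and the median cell went from 62.9 and 78.8 CPM at the 8-cell stage to 0 in both 32-cell groups. The stage difference was 2.59-fold in control and 8.20-fold in mimic cells, and without the run of 24 32-cell control cells the former was a log2 change of -0.76, under 2-fold. At the 32-cell stage Jak2 was 2.55-fold lower in mimic than in control cells (ratio 0.392, 0.353 to 0.436), with runs at 15.2 and 34.9 CPM in control and at 4.99, 11.8 and 11.3 CPM in mimic cells. This difference was under 2-fold without the run of 15 control cells (log2 change -0.69) or without the run of 18 mimic cells (-0.94). The number of positive cells was nearly the same (13 and 12 of 39), 3 control cells and no mimic cell passed 100 CPM, and on the scale of mean log2(CPM + 1) over cells the difference was -0.24 in place of -1.26. At the 8-cell stage Jak2 was 1.25-fold higher in mimic cells (1.17 to 1.32). Within 8-cell cells it was higher in those with Y-linked counts above Xist (107.9 CPM in control, 95.2 CPM in mimic) than in those with Xist only (35.9 and 38.1 CPM), and the part of this in the 32-cell difference was not tested.

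Stat3 (chr11:100885098-100939540, minus strand) was much higher at the 32-cell stage. It was then the most widely detected of the 8 genes in control cells and level with Jak1 in mimic cells (36 of 39 each). The pooled level was 13.3 CPM (12.1 to 14.5) in 8-cell control, 27.9 CPM (26.1 to 29.8) in 8-cell mimic, 294.6 CPM (290.1 to 299.1) in 32-cell control and 174.1 CPM (170.6 to 177.7) in 32-cell mimic cells. The median cell stood at 0, 3.77, 280.8 and 173.2 CPM, and the highest at 119, 187, 644 and 432 CPM. Stat3 was found in 13 of 30 and 14 of 24 cells at the 8-cell stage, in all 39 32-cell control cells and in 36 of 39 32-cell mimic cells, and 33 and 27 cells of the latter 2 groups passed 100 CPM against 1 in each 8-cell group. The cells of the stages overlapped: 7 of 39 32-cell control cells and 21 of 39 32-cell mimic cells were at or below the highest 8-cell cell of their treatment. It was 22.2-fold higher at the 32-cell stage in control (20.3 to 24.3) and 6.24-fold higher in mimic cells (5.82 to 6.70).

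Under the mimic Stat3 was higher at the 8-cell stage and lower at the 32-cell stage. At the 8-cell stage it was 2.10-fold higher (1.88 to 2.35), a log2 change of 1.02 that sits at the 2-fold limit and was 0.91 without control cells 87 and 88 and 0.96 without the highest cell of each group. Restricted to cells with Y-linked counts above Xist, the 7 control cells stood at 19.2 CPM and the 8 mimic cells at 28.9 CPM, and in cells with Xist only the levels were 13.1 and 29.1 CPM. At the 32-cell stage it was 1.69-fold lower (ratio 0.591, 0.576 to 0.606), which did not reach 2-fold in pooled counts but did on the scale of mean log2(CPM + 1) over cells (-1.02 in place of -0.76), and control runs at 257 and 320 CPM lay above mimic runs at 184, 110.9 and 230 CPM. The 3 32-cell mimic cells without Stat3 were all in the run of 12. The Stat3 and Stat5a genes lie on opposite strands and share 72 exon bases.

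Socs3 (chr11:117966079-117970047, minus strand), the feedback inhibitor, was the reverse of Stat3. It was pooled at 129.7 CPM (126.0 to 133.4) in 8-cell control, 83.5 CPM (80.3 to 86.7) in 8-cell mimic and 6.40 CPM (5.76 to 7.09) in 32-cell control cells, and it had no count in 32-cell mimic cells, which allows up to 0.0563 CPM. Positive cells numbered 27 of 30, 16 of 24, 8 of 39 and 0 of 39, with medians of 109.1, 55.3, 0 and 0 CPM. Socs3 was 20.3-fold lower at the 32-cell stage in control and at least 1481-fold lower in mimic cells, a bound for counting error only. The bound does not cover the spread between cells, and 1 cell held 40.1% of the Socs3 counts of 32-cell control cells. The 32-cell difference between treatments is carried by 1 run: all 8 positive control cells were in the run of 24 (10.7 CPM), the run of 15 held none, and without the run of 24 no difference between control and mimic remained. On the scale of mean log2(CPM + 1) over cells the 32-cell difference was -0.89, under 2-fold, in place of -2.89, and the 8-cell difference was -1.59, past 2-fold, in place of -0.63. At the 8-cell stage Socs3 was 1.55-fold lower in mimic cells (ratio 0.644, 0.613 to 0.675), but in cells with Y-linked counts above Xist control stood at 54.3 and mimic at 96.1 CPM, the opposite order, and in cells with Xist only at 175 and 64.5 CPM. Stat3 and Socs3 were found together in 12 cells of each 8-cell group, whereas Stat3 without Socs3 was found in 1 and 2 8-cell cells and in 31 and 36 32-cell cells.

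The Socs3 promoter is printed because it alone, of the RefSeq promoters found for all 8 genes (250 bases before to 50 after the start), held the motif that STAT factors bind, searched as TTCNNNGAA, which reads the same on both strands. Of 32851 promoters, 8.30% held it. The motif, in capitals, lies before the start (GRCm38.p6, chr11:117969317-117969616, minus strand).
Socs3 promoter: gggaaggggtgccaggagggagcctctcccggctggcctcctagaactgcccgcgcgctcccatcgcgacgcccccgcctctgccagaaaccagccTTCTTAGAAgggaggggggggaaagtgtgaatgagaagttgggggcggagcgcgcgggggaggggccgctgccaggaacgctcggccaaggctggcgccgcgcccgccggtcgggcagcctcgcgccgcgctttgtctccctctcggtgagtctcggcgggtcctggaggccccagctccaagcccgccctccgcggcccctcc
No binding was measured in these embryos, and no match in the other promoters says only that these letters are not in those windows.

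Counted over the genes with a mean of at least 5 CPM in the 4 groups (9636 of all genes, 7 of the 8), 5 of the 7 in control and 3 in mimic cells differed by at least 2-fold between the stages, and 1 at the 8-cell and 3 at the 32-cell stage between the treatments, on the scale of log2(CPM + 1). A gene can pass the limit of 5 CPM through 1 high group, as Il6st did, so these counts are a description. From the 8-cell to the 32-cell stage 3 of the 7 were higher in control cells (Lif, Il6ra and Stat3), where 30.1% of all counted genes were, and 2 were lower (Jak2 and Socs3), where 20.4% were. Without the larger run of 32-cell control cells, Lif, Il6ra and Jak2 were no longer past 2-fold in these directions. In mimic cells 1 of the 7 was higher (Stat3) against 30% of all genes, and 2 were lower (Jak2 and Socs3) against 18.8%. Mimic over control at the 8-cell stage, 1 of the 7 was higher (Stat3) against 9.69% and 0 were lower against 9.65%. At the 32-cell stage 0 were higher against 9.62% and 3 were lower (Il6st, Jak2 and Socs3) against 6.38%. The medians of the 7 log2 changes were 0.71, 0.26, 0.31 and -0.76 in these 4 comparisons, against 0.20, 0.23, 0.01 and 0.03 over all counted genes. Comparisons that share a group, such as the control stage change and the 32-cell mimic change, are not independent, and the values are set side by side only.

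**Figure D3:**
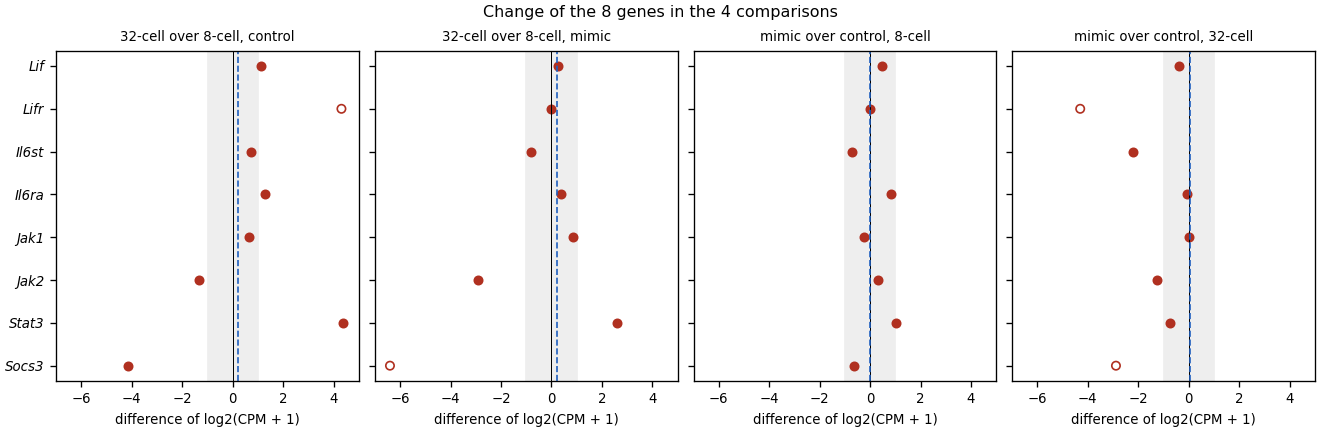
Difference of log2(CPM + 1) of the 8 genes in the 4 comparisons, with the span under 2-fold in grey, the median of all counted genes as a dashed line, and open circles where 1 group had no count, so that the plotted value depends on the added 1 CPM. Stat3 is at 4.37 and 2.60 in the stage comparisons and Jak2 at -1.33 and -2.90, and in the last panel Lif lies at -0.38, which turned to 1.38 without the run of 24 control cells.

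The 32-cell cells split into an ICM-like and a TE-like cluster from genes that did not include the pathway. The names were given by which of the 9 ICM and 9 TE markers were higher, and each cluster had all 9 of its own markers higher than the other. These markers are therefore no separate check of the names. By fold over both treatments, Lifr led the 10 leading genes of the ICM-like cluster. They also included Otx2, Tdgf1, Fgf4 and the Y-linked Uty, and 2 of the 10 were ICM markers. Those of the TE-like cluster included Foxred2, Abcb1b and Ovol1, and 0 of the 10 were TE markers. The clusters differed in their mix of treatments, so these folds do not separate class from treatment or embryo sex. There were 25 ICM-like and 14 TE-like control cells, and 10 and 29 mimic cells. In pooled counts of control cells the ligand and the receptor chains lay on opposite sides, but few cells carried them: Lif was found in 5 of 14 TE-like and 4 of 25 ICM-like cells, Il6st in 1 and 7 and Il6ra in 4 and 11, and the median cell of both classes was at 0 for Lif, Lifr, Il6st and Il6ra. A single cell held 41.97% of the Lif counts and 53.0% of the Il6st counts of the control group. Lif stood at 18.5 CPM (16.8 to 20.3) in TE-like and 1.47 CPM (1.09 to 1.95) in ICM-like cells. All 6 cells with Lifr were ICM-like, where it stood at 32.8 CPM (30.8 to 34.8), and Il6st at 20.5 CPM against 1 count in the TE-like cells. Il6ra stood at 19.3 CPM in ICM-like and 3.82 CPM in TE-like cells, and Socs3 at 9.86 and 1.77 CPM. The kinases and Stat3 lay with Lif: in TE-like against ICM-like control cells Jak2 stood at 47.3 against 5.01 CPM, Jak1 at 137 against 76.6 CPM and Stat3 at 418 against 203 CPM, with a median TE-like cell at 450 CPM and a median ICM-like cell at 216 CPM.

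In mimic cells most of these class differences were smaller. Stat3 stood at 183 CPM in ICM-like and 171.3 CPM in TE-like cells, Jak1 at 102.6 and 101.8 CPM, and Il6ra at 13.6 and 11.3 CPM. Lif stood at 2.70 and 7.72 CPM, and Jak2 had no count in the 10 ICM-like cells (up to 0.231 CPM) and 11.99 CPM in the TE-like cells. The 32-cell difference in Stat3 was thus larger in TE-like cells, 418 and 171.3 CPM in control and mimic, than in ICM-like cells, 203 and 183 CPM. With each cell placed by its markers alone, 17 mimic cells were ICM-like and 22 TE-like, Stat3 stood at 146.6 and 194 CPM in them, Lif at 8.90 and 4.74 CPM, the opposite order to that in the clusters, and Lifr and Socs3 still had no count in either. The labels give no lineage to a cell, the mimic group had fewer ICM-like cells, and the part of class sizes in the pooled differences was not tested.

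**Figure D4:**
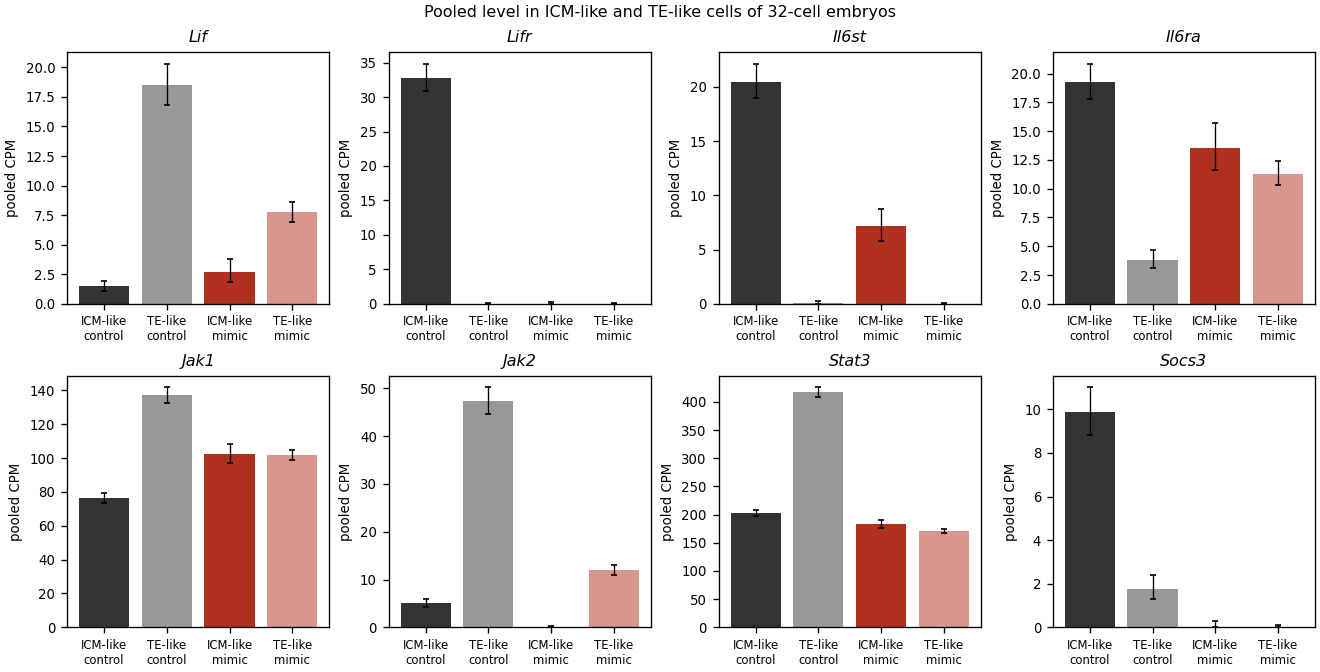
Pooled CPM with exact Poisson 95% intervals in ICM-like (dark) and TE-like (pale) cells of 32-cell control (grey, 25 and 14 cells) and 32-cell mimic embryos (red, 10 and 29 cells). In control cells Lifr, Il6st, Il6ra and Socs3 are higher in ICM-like cells and Lif, Jak1, Jak2 and Stat3 in TE-like cells.

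Co-variation between single cells of a group was weak for most pairs of the 8 genes. Over 39 cells the Pearson r of log2(CPM + 1) between Jak1 and Stat3 was -0.01 in 32-cell control and -0.07 in 32-cell mimic cells, although 32 and 33 cells held both. Among 8-cell cells the r of Jak2 with Socs3 was -0.42 in control and 0.47 in mimic cells, and that of Jak1 with Socs3 -0.50 and 0.42. These were the pairs with the largest r in size in both 8-cell groups. The levels of these genes there also differed with the Xist and Y-linked counts, and the part of this in r was not tested. All are descriptions over cells that share embryos. Only Jak1 (68 cells) and Stat3 (75 cells) had counts in most of the 78 32-cell cells, and for them the genes with the closest pattern were sought among 9497 genes as the mean of r within control and within mimic cells. For Stat3 they were Nectin2, a cell adhesion molecule (0.59), Nelfb, a subunit of the negative elongation factor (0.59), and Suclg2, a subunit of a mitochondrial succinate-CoA ligase (0.59). For Jak1 they were Shroom3, which acts on apical actin (0.55), Dbnl, an actin-binding adaptor (0.45), and Lmo7, a LIM domain protein of cell junctions (0.44).

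Around the 8 genes, a list of 58 genes of the pathway in all (7 ligands, 11 receptor chains, 4 kinases, 7 STAT factors, 17 inhibitors or phosphatases and 12 known STAT3 targets) had 36 members with a mean of at least 5 CPM. Of these 36, 9 were at least 2-fold higher and 13 lower at the 32-cell stage in control cells, and 9 higher and 12 lower in mimic cells. The share higher was 25% in both, below that of all genes given above, and the shares lower were 36.1% and 33.3%, above that of all genes. The median log2 change of the list was 0.03 in both. Mimic over control, 2 were higher and 5 lower at the 8-cell stage, and 0 were higher and 6 lower at the 32-cell stage, with medians of -0.14 and -0.10. These are shares of 5.56% higher and 13.9% lower at the 8-cell stage, against 9.69% and 9.65% of all counted genes, and of 0% higher and 16.7% lower at the 32-cell stage, against 9.62% and 6.38%.

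By role, no ligand but Lif and no receptor chain but Il6st, Il6ra and Csf3r had a mean of at least 5 CPM over the 4 groups. Csf3r, the receptor of granulocyte colony-stimulating factor, which also signals through STAT3, stood at 38.6 and 47.1 CPM in 8-cell control and mimic cells and at 209 and 136 CPM in 32-cell control and mimic cells, in 36 of 39 cells of each 32-cell group. Among the kinases Jak3 was higher at the 32-cell stage (0.490 to 8.56 CPM in control, 2.78 to 10.4 CPM in mimic cells) and Tyk2 lower in control cells (41.4 to 13.4 CPM). Only 4 STAT factors were counted, and 3 of them were higher at the 32-cell stage in both treatments, where 30.1% (control) and 30% (mimic) of all counted genes were: Stat3, Stat5a (7.68 to 25.3 CPM in control, 4.17 to 30.4 CPM in mimic) and Stat6 (3.40 to 48.0 CPM in control, no count to 28.1 CPM in mimic). Stat2, which acts in interferon signalling, was lower (59.97 to 10.5 CPM and 53.4 to 14.6 CPM).

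Among the 16 inhibitors or phosphatases counted, 6 were lower at the 32-cell stage in each treatment (37.5%, against 20.4% of all counted genes in control and 18.8% in mimic cells). Beside Socs3 these included Socs7 (72.0 to 3.99 CPM in control, 59.5 to 3.51 CPM in mimic) and Ptpn2, a phosphatase of JAK and STAT proteins (579 to 142 CPM, 510 to 128 CPM). Pias2 was higher in both (40.8 to 165.7 CPM, 20.3 to 105.3 CPM) and was the 1 inhibitor higher in control cells, while in mimic cells Socs2 (7.02 to 43.3 CPM) and Pias3 (2.49 to 10.3 CPM) were higher too. Among the 8 STAT3 targets counted, 1 was higher (12.5%, against 30.1% and 30% of all counted genes in control and mimic cells) and 4 were lower (50%, against 20.4% and 18.8%) in each treatment. The 1 was Tfcp2l1, a transcription factor of the ICM and of naive stem cells, at 83.7 and 73.1 CPM in 8-cell and 1800 and 1342 CPM in 32-cell control and mimic cells, and it was in all 39 cells of both 32-cell groups. Its level was alike in ICM-like and TE-like cells, at 1834 and 1754 CPM in control and 1405 and 1322 CPM in mimic cells. The 4 were Pim1 and Pim3, which are kinases, Myc, and the survival factor Mcl1, with Pim1 going from 88.4 to 11.1 CPM (control) and from 70.9 to 15.9 CPM (mimic). Socs3 is itself a known STAT3 target, listed here as an inhibitor.

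Mimic over control, Myc was at least 2-fold lower at both stages, and Klf4, a transcription factor of stem cells, at the 8-cell stage. Myc stood at 124 (control) and 38.8 CPM (mimic) at the 8-cell stage and at 35.7 and 12.4 CPM at the 32-cell stage. Klf4 stood at 42.2 and 10.6 CPM at the 8-cell stage. Its 32-cell levels were 42.5 and 20.4 CPM, just past 2-fold, but the run of 15 control cells held 76.4 CPM and the run of 24 held 19.8 CPM, and without the run of 15 the log2 change was 0.04 in place of -1.03. Socs2 was lower at the 8-cell stage (31.1 and 7.02 CPM), as were Stat6 (3.40 CPM and no count) and Pias3 (6.56 and 2.49 CPM), and Jak3 was higher (0.490 and 2.78 CPM). The 8-cell values of Stat6 and Jak3 rest on few cells: in 8-cell control cells 2 of 30 held Stat6, 1 of them with 98.4% of its counts, and 2 of 30 held Jak3, 1 of them with 94.4%. Both genes reached a mean of 5 CPM only through the 32-cell groups, and without the highest cell of each group the log2 change of Stat6 was -0.08 in place of -2.14. Pias3 was found in 4 of 30 and 4 of 24 cells, with 47.7% and 46.8% of its counts in 1 cell, and without those cells its log2 change was -0.95, under 2-fold. Socs6 was lower at the 32-cell stage (40.4 and 15.5 CPM), by under 2-fold without the run of 9 mimic cells (log2 change -0.94).

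**Figure D5:**
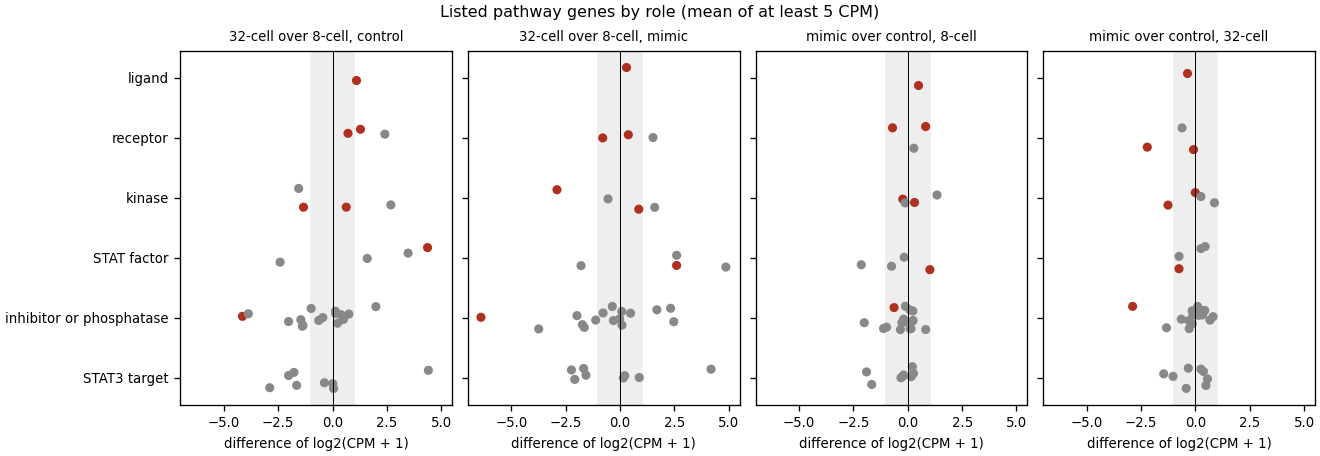
Difference of log2(CPM + 1) of the 36 listed pathway genes with a mean of at least 5 CPM, by role, with Lif, Il6st, Il6ra, Jak1, Jak2, Stat3 and Socs3 in red, the others in grey and the span under 2-fold shaded; vertical scatter within a role carries no value. In the stage panels Tfcp2l1, a STAT3 target, lies far to the right at 4.41 in control and 4.18 in mimic cells.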

How the data were processed

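Transcriptomes of 132 single mouse embryo cells were read by Smart-seq2 without molecular identifiers, and every interval, limit or bound given above or below reflects counting error alone. The authors mapped their reads to mm10 using STAR 2.5.1b and deposited expected counts per gene and cell from RSEM 1.3.0, all of them whole numbers and not normalised. Total counts per cell ranged from 544866 to 3461022. The study's filter (at least 3000 genes, under 10% mitochondrial counts) removed 0 cells.

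From these, counts were summed over the cells of a group and divided by the total without 13 mitochondrial genes. A change is the difference of log2(CPM + 1), and one of at least 2-fold was counted among genes with a mean of at least 5 CPM. Ratios have exact conditional (Clopper-Pearson) 95% intervals, and a count of 0 was given the limit of 3 counts. With 1 sample a group there was no test. Python (version 3.11.15) and, for clusters, R (version 4.3.3) with Seurat (version 5.3.0) were used: 2000 variable odd-ranked genes without the pathway list, 25 components, resolution 0.8. Clusters were named from 9 ICM and 9 TE markers. "Xist only" means Xist counts with at most 1 count of 4 Y-linked genes. Named were the 8 genes, up to 10 other listed genes with the largest change past 2-fold in each comparison, and 3 genes of closest pattern per gene. The members and lists were chosen with earlier results of these data known.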

Additional observations from a re-analysis of the deposited data

Results flagged for a closer look

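Flagged were 2 genes whose change under the mimic had opposite signs at the 2 stages. Lif (0.46 at the 8-cell and -0.38 at the 32-cell stage) and Il6ra (0.82 and -0.09) also turned sign but were not flagged. Stat3 was higher in mimic cells at the 8-cell stage (log2 change 1.02) and lower at the 32-cell stage (-0.76), a difference of -1.77. Jak2 was higher at the 8-cell stage (0.31) and lower at the 32-cell stage (-1.26), a difference of -1.57. In cells with Y-linked counts above Xist its 8-cell change was -0.18. On the scale of mean log2(CPM + 1) over cells its 32-cell change was -0.24. With 1 sample a group the difference between the stages was not tested, and the stages also differed in dose. At the 32-cell stage mimic treatment and embryo sex cannot be told apart.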

How the results depend on the processing

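No paired analysis was possible because the embryo of each cell is not given and no test was made. Of 20 alternative settings, 14 to 16 applied to each comparison. Over those, which included other filters, pseudocounts, scalings and depths, and leaving out each run of cell numbers in turn, the stage changes of Stat3 stayed between 3.87 and 6.16 in control and between 2.39 and 3.90 in mimic cells, and those of Socs3 at or below -2.90, leaving aside the setting that keeps only 2 8-cell control cells (87 and 88). With it, leaving out runs put the control stage change of Il6ra between -1.18 and 1.97, that of Jak2 between -1.91 and 4.59 and that of Lif between -0.66 and 3.29; Il6ra and Jak2 turned sign only there, and Lif only without the run of 24 32-cell control cells.

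Numbers of listed genes at least 2-fold higher in control cells at the 32-cell stage moved from 9 to 14 (filter at 1 CPM), 4 (20 CPM) and 16 (no filter), and in mimic cells from 9 to 5 (20 CPM). Mimic over control at the 8-cell stage, the 2 higher became 1 (median-of-ratios scaling, 20 CPM filter or thinning to 500000 counts), 4 (no filter or 1.5-fold), 0 (pseudocount 5 CPM) and 6 (cells of 1 Xist or Y type), and the 5 lower became 3 (20 CPM filter or pseudocount 5 CPM), 9 (1.5-fold) and 10 (Y-linked counts above Xist). At the 32-cell stage the 0 higher became 1 (mean of log2 over cells, or without the highest cell), 2 (filter at 1 CPM) and 3 (no filter or 1.5-fold), and the 6 lower became 10 (1.5-fold). Leaving out runs moved them to 19 and 16 at most for control stage and 8-cell mimic genes higher, and to between 0 and 5 for 32-cell mimic genes higher. No setting with cells of 1 Xist or Y type could be had for mimic over control at the 32-cell stage. Median-of-ratios scaling shifted all genes by -0.12 and -0.19 in the stage comparisons.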
